A study of Mus musculus with 6 samples.

Results

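Transfer RNA fragments are short pieces of tRNA, and they were measured here in the small RNA bound to Argonaute proteins, the R-sRNA, of the mouse brain. The fragments were all read sequences that the deposited annotation placed in its tRNA class and that carried no miRNA label, 10176 of the 143934 read sequences in the table. They carried 175 tRNA names, which fall into 66 labels of amino acid and anticodon (isoacceptors), 52 of them cytosolic and 14 mitochondrial. The rule used the annotation alone and no measured level. Argonaute was pulled down with a GW182 peptide from combined cortex and hippocampus of BL6 mice, untreated wild-type mice that the study's methods give as male C57BL/6J. A total of 3 libraries came from mice 2 months old (2M) and 3 from mice 18 months old (18M), and both ages share strain, tissue and protocol. The labels do not state that each library is a separate mouse, so the p-values below measure only the spread between these libraries.

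A tRNA folds into a cloverleaf with a D loop near its 5′ end, an anticodon loop in the middle, a T loop, and an acceptor stem at whose 3′ end the bases CCA are added after transcription. Enzymes such as angiogenin and Dicer cut tRNAs in these loops, and the pieces can enter Argonaute, where bases 2 to 7 of the small RNA, the seed, pair with target RNAs. Fragments are named after the part they hold: 5′ fragments, 3′ fragments that keep the CCA, and internal pieces. Mitochondrial tRNAs come from the mitochondrial genome and also receive a CCA.

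The sequences on which the results turn are shown with the seed in capitals, 5′ to 3′, as the DNA letters of the deposited reads. The first set holds reads that start in the anticodon loop and end in the T loop, the part in which the ages differed most.
Asn-GTT, 23 nt: tAACCGAaaggttggtggttcga
Asn-GTT, 22 nt: tAACCGAaaggttggtggttcg
Asn-GTT, 21 nt: tAACCGAaaggttggtggttc
Ile-TAT, 22 nt: aATGCCGaggttgtgagttcga
Gln-CTG, 20 nt: aATCCAGcgatccgagttca

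The second set holds abundant reads of the other abundant tRNAs. For Ser-GCT it shows the leading read of the name chr13.trna115-SerGCT, at a mean of 23.2 RPM. A 26 nt Ser-GCT read starting at TAATCC averaged more, at 30.4 RPM. The first 5 start at the 5′ end of the tRNA, and the last 3 end in CCA.
Leu-AAG, 20 nt: gGTAGCGtggccgagcggtc
Glu-TTC, 23 nt: tCCCACAtggtctagcggttagg
Asp-GTC, 23 nt: tCCTCGTtagtatagtggtgagt
mt-Tl1, 23 nt: aTTAGGGtggcagagccaggaaa
mt-Ts2, 21 nt: aAGAAAGattgcaagaactgc
His-GTG, 22 nt: tCGAATCcgagtcacggcacca
Ser-GCT, 22 nt: tCGAATCccatcctcgtcgcca
mt-Tv, 22 nt: tGACCAAtgaacactctgacca

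In RPM, the number of reads scaled to the size of the library, the tRNA fragments summed to 5972, 5245 and 5197 RPM in 2M replicates 1, 2 and 3, and to 7553, 5328 and 6787 RPM in 18M replicates 1, 2 and 3. The ages overlapped, since 18M replicate 2 lay below 2M replicate 1. The mean was 5471 ± 434 RPM (SD, n = 3) at 2M and 6556 ± 1130 RPM (SD, n = 3) at 18M, a difference that did not pass an exact two-sided permutation test (p = 0.2, adjusted p = 0.32 over 8 measures). With 3 libraries against 3 the smallest possible p is 0.1. RPM is a share of a library, so a fragment made by fewer cells and less of it per cell cannot be told apart.

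Depth was 19272046 to 25080484 recovered reads per library, of which 109050 to 148567 were tRNA reads (0.520% to 0.756%, each with a 95% Wilson interval of at most ± 0.00387 percentage points), and no 2 libraries were duplicates. A count of 0 allows up to 0.120 to 0.156 RPM. The labelled tissue was met by its markers, with the neuronal miR-124-3p the most abundant miRNA. Of 18 marker miRNAs found, out of 19 listed, 2 were lower at 18M without overlap, miR-132-3p and miR-150-5p. Of all names tested, 13.7% were lower without overlap. The immune list, miR-150-5p included, summed to 3401 to 3825 RPM at 2M and to 2458 to 2997 RPM at 18M, and its part in the results below was not tested. Most of that sum was miR-150-5p, at 2852 to 3124 RPM at 2M and 2068 to 2431 RPM at 18M. The others, miR-142a-3p, miR-142a-5p, miR-223-3p and miR-155-5p, each overlapped between the ages. The erythrocyte list, miR-451a and miR-144-3p, overlapped between the ages, at 2356 to 3498 RPM and 1113 to 2736 RPM.

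Reads that ended in the T loop were 2.57 times higher at 18M by the ratio of the means, whereas 5′ fragments and CCA-ending fragments overlapped between the ages. The T-loop class held 751 read sequences, told by their letters: a cytosolic read ending at or up to a few bases past the conserved GTTC or GATC of the T loop. Position classes were set after the values had been seen, so their levels are described with no test. The class summed to 576, 521 and 404 RPM in the 2M libraries and to 1240, 1092 and 1528 RPM in the 18M libraries. The lowest 18M library lay above the highest 2M library. The means were 500 ± 88.1 RPM (SD, n = 3) and 1287 ± 222 RPM (SD, n = 3), a ratio of 2.57, which stayed between 2.33 and 2.78 as each library was left out in turn. As a share of all tRNA reads, the class made up 9.65%, 9.93% and 7.77% at 2M and 16.4%, 20.5% and 22.5% at 18M.

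Cytosolic CCA-ending reads were at 1426, 1336 and 1517 RPM at 2M and at 1595, 1325 and 1503 RPM at 18M. Cytosolic 5′ reads were at 1405, 1357 and 1264 RPM at 2M and at 1653, 1016 and 1273 RPM at 18M. Both classes overlapped between ages, with ratios of the means of 1.03 and 0.98. Without the T-loop class the tRNA reads came to a mean of 4971 ± 370 RPM (SD, n = 3) at 2M and 5269 ± 1039 RPM (SD, n = 3) at 18M, and those groups overlapped. Among the other annotation classes, rRNA reads overlapped, at 1175 to 1344 RPM at 2M and at 1193 to 1538 RPM at 18M, and miscRNA reads were higher at 18M without overlap, at 312 to 407.6 RPM and at 408.3 to 483.7 RPM. What these classes share with the T-loop reads was not tested.

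**Figure D1:**
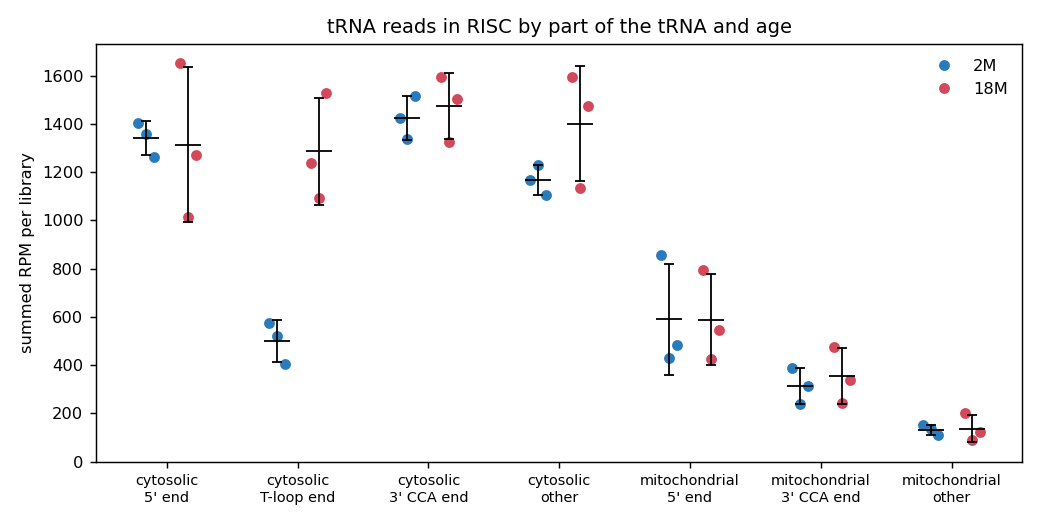
Summed RPM of tRNA reads in each library (points), by origin and by the part of the tRNA that the read holds, with the mean and SD of each age (n = 3). The T-loop class is the only class drawn in which the 18M libraries, at 1092 to 1528 RPM, do not overlap the 2M libraries, at 404 to 576 RPM.

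Within the T-loop class, reads were narrow in length and in their start. Of its RPM, 89.8% lay at 21 to 24 nt, with 42.3% at 23 nt. Starts were counted back from the conserved C at position 56 in the standard tRNA numbering, assuming a variable loop of the usual size. By this count 61.1% of the class started at position 36, the last base of the anticodon, 11.1% at 37 and 18.4% at 38. The count is only approximate. His-GTG T-loop reads were placed at 36 but begin with T, whereas the last base of the anticodon GTG is G. The first base was T in 66.2% of the class, which is also the usual first base of miRNAs.

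The T-loop reads of tRNA-Asn made up 39.9% of the class, and they held most of its difference between ages. The isoacceptor Asn-GTT, which decodes asparagine codons, was at 214, 185 and 129 RPM in the 2M libraries and at 610, 519 and 808 RPM in the 18M libraries. Every 18M library exceeded every 2M library by more than a factor of 2. Asn-GTT rose by a log2 fold change of 1.87 (SE 0.24, limma on log2(RPM + 1), Benjamini-Hochberg adjusted p = 0.030), 3.66 times the 2M mean on the RPM scale.

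Most Asn-GTT reads were listed under 1 of its 4 names. The copy that the annotation calls chr3.trna757-AsnGTT, on chromosome 3, was at 180, 166 and 90.5 RPM at 2M and at 576, 500 and 773 RPM at 18M (log2 fold change 2.11, SE 0.30, limma adjusted p = 0.047). The other 3 names, some of which also list chromosome 3, were together at 34.1, 19.8 and 38.7 RPM at 2M and at 34.2, 19.5 and 35.5 RPM at 18M. Nearly all reads of those other names ended in CCA, at a mean of 28.6 RPM, while chr3.trna757-AsnGTT had only 0.50 RPM of CCA-ending reads. The few T-loop reads of the other names had a ratio of the means of 3.68, from 0.49 to 1.79 RPM, beside 4.37 for those of chr3.trna757-AsnGTT. Copies of an isoacceptor differ in few bases, and a read that fits several copies is listed under all of them, so the split follows the deposited matching.

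The leading read of that copy, 23 nt long, was at 64.1, 60.1 and 29.6 RPM at 2M and at 256, 222 and 397 RPM at 18M. It rose by a log2 fold change of 2.52 (SE 0.35, limma adjusted p = 0.045). By the count from position 56, it runs from position 36 to position 58. The same read without its last base was at 27.3, 32.0 and 16.5 RPM at 2M and at 120, 119 and 135 RPM at 18M (log2 fold change 2.30, SE 0.25, limma adjusted p = 0.039). The form shorter by a further base was at 5.57, 3.99 and 3.05 RPM at 2M and at 28.4, 17.9 and 37.2 RPM at 18M (log2 fold change 2.44, SE 0.31, limma adjusted p = 0.039).

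These 3 reads share a start and the seed AACCGA, to which the deposited table gives a viability of 72.7%, the percent of cells surviving an siRNA with that seed. Longer forms with the same start differed less. The 24 nt form was at 22.7, 26.1 and 9.58 RPM at 2M and at 51.1, 29.2 and 62.1 RPM at 18M, with a limma adjusted p of 0.28. All tRNA reads with the seed AACCGA summed to 145, 145 and 77.2 RPM at 2M and to 525, 451 and 715 RPM at 18M, the highest mean of any seed in the tRNA reads. No abundant miRNA shares it, since miRNA-labelled reads with that seed averaged 0.066 RPM.

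Ile-TAT, which decodes a rare isoleucine codon, was the other isoacceptor that rose. It was at 52.5, 63.0 and 54.7 RPM at 2M and at 107, 95.4 and 106 RPM at 18M (log2 fold change 0.84, SE 0.12, limma adjusted p = 0.037). Its leading read, the 22 nt T-loop read shown above, was at 5.05, 4.31 and 4.72 RPM at 2M and at 20.02, 19.96 and 20.3 RPM at 18M. The spread within each age was small beside the gap, and the log2 fold change was 1.89 (SE 0.17, limma adjusted p = 0.026). The name chr17.trna516-IleTAT, on chromosome 17, was at 42.8, 50.3 and 38.7 RPM at 2M and at 88.1, 74.8 and 84.6 RPM at 18M (log2 fold change 0.90, SE 0.14, limma adjusted p = 0.0495).

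Of the 10176 tRNA read sequences, 85 reached a mean of 10 RPM and were tested, and they carried 39.3% of the tRNA RPM. The 4 called reads, all higher at 18M, are the 3 Asn-GTT reads and the Ile-TAT read, against 0.213% of all 3281 read sequences tested that were called higher and 0.152% called lower. Each of the 4 lies in the T-loop class, and the 21 nt Asn-GTT read and the Ile-TAT read reached 10 RPM only through their 18M libraries. At the level of names 2 of 80 were called, and at the level of isoacceptors 2 of 59, all higher, against 0.253% and 0.26% of all names and isoacceptor-level features tested. Those shares consist of the same 2 tRNA calls, since no other feature was called higher at either level. No tRNA was called lower at either level, against 0.886% and 1.04% of all features. At an unadjusted p under 0.05 in limma, 22 reads were higher and 1 lower (8.41% and 4.63% of all reads), 13 names were higher and 0 lower (5.7% and 8.23% of all names), and 9 isoacceptors were higher and 0 lower (5.33% and 8.45%). Without overlap between ages, 25 reads were higher and 4 lower (11.5% and 9.45%), and 15 names were higher and 0 lower (8.1% and 13.7%). These calls rest on all 6 libraries: leaving out any library left 0 calls by limma at each level, with 17 to 27 reads, 9 to 19 names and 7 to 13 isoacceptors at an unadjusted p under 0.05, while the log2 fold change of the leading Asn-GTT read stayed between 2.17 and 2.72. With all libraries, edgeR on the recovered reads called 3, 2 and 2, of 9, 10 and 10 called over all features. The leading 23 nt Asn-GTT read was not among them, with an edgeR adjusted p of 0.0506. DESeq2 called 15, 9 and 7, of 151, 52 and 53 called over all features.

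**Figure D2:**
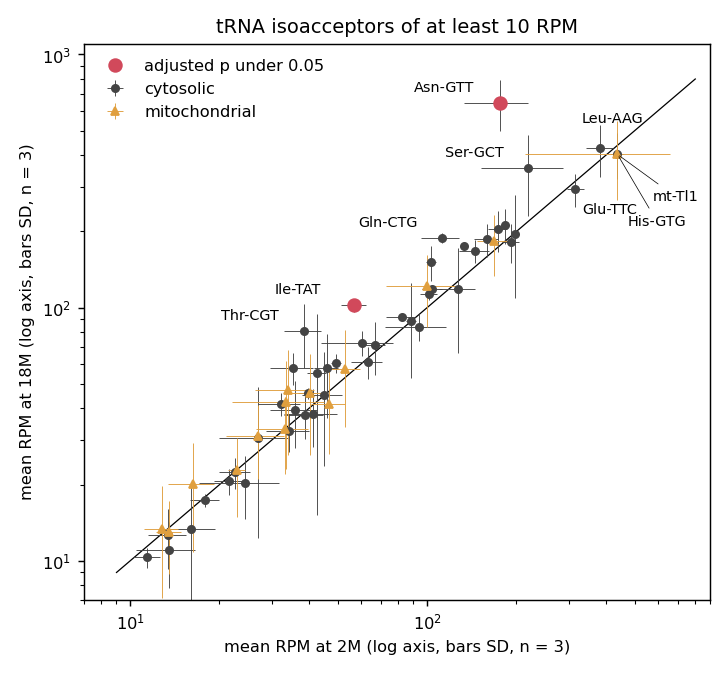
Mean RPM of the 59 tRNA isoacceptors of at least 10 RPM at 2M (horizontal) and 18M (vertical), both log axes, with SD over 3 libraries. The line marks equal levels, and the large red points are Asn-GTT, at 176 and 646 RPM, and Ile-TAT, at 56.7 and 103 RPM.

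T-loop reads of most other tRNAs also had higher means at 18M. The class had reads of 39 isoacceptors, and the mean was higher at 18M in 37 of them and lower in Leu-CAG and Gly-GCC, both under 1 RPM. In 27 of the 39 the 18M libraries lay above the 2M libraries without overlap, in 12 they overlapped, and in 0 they lay below. No share over all features was computed beside these counts, which include T-loop reads far under 10 RPM. A mean of 10 RPM was reached by 11, of which Gly-CCC and Ser-AGA passed only through their 18M libraries. The other 9 had at least 10 RPM at both ages, and all 9 were higher at 18M without overlap. So were 8.63% of all features with that level at both ages, where only tRNA reads were split by isoacceptor and part and other RNA was counted by name. Of the 110 tRNA features so split with a mean of at least 10 RPM, T-loop ones included, 22 were higher and 3 lower without overlap. The ratio of the means was highest in low T-loop reads of 2 arginine tRNAs, at 7.67 in Arg-CCT (0.21 and 1.61 RPM at 2M and 18M) and 4.82 in Arg-TCT (0.67 and 3.21 RPM).

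Gln-CTG, a glutamine tRNA, had T-loop reads at 94.2, 91.9 and 66.6 RPM at 2M and at 153, 151 and 166 RPM at 18M. Its 20 nt read shown above was at 16.3, 13.8 and 11.6 RPM at 2M and at 34.9, 26.4 and 34.4 RPM at 18M, with a log2 fold change of 1.14 (SE 0.19, limma adjusted p = 0.079). Thr-CGT, a threonine tRNA, had T-loop reads at 27.8, 20.3 and 18.3 RPM at 2M and at 67.0, 46.4 and 86.8 RPM at 18M. The groups were apart in both tRNAs, and the ratios of the means were 1.86 and 3.02.

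The ratio was higher in T-loop reads than in the other reads of the same tRNA in 35 of the 39 isoacceptors, Ser-GCT, Leu-CAG, Ala-CGC and Gly-GCC being the exceptions. For that count, too, no share over all features was computed. For Met-CAT, the methionine tRNAs, the ratio of 18M to 2M means was 1.52 in T-loop reads and 1.004 in its other reads. In Ile-AAT the ratios were 1.91 and 0.82, in His-GTG 1.55 and 0.85, in Thr-CGT 3.02 and 0.85, and in Thr-AGT 2.45 and 1.05. The other reads had a ratio further above 1 in Asn-GTT, at 1.52, Ser-AGA, at 1.45, Gly-CCC, at 1.28, Ile-TAT, at 1.2, and Gln-CTG, at 1.18, while Phe-GAA had 1.62 in T-loop reads and 1.08 in the others. In Ser-GCT the ratios were 1.48 and 1.62. Without Asn-GTT, the class was still at 414, 367 and 322 RPM at 2M and at 697, 629 and 795 RPM at 18M, a ratio of 1.92.

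**Figure D3:**
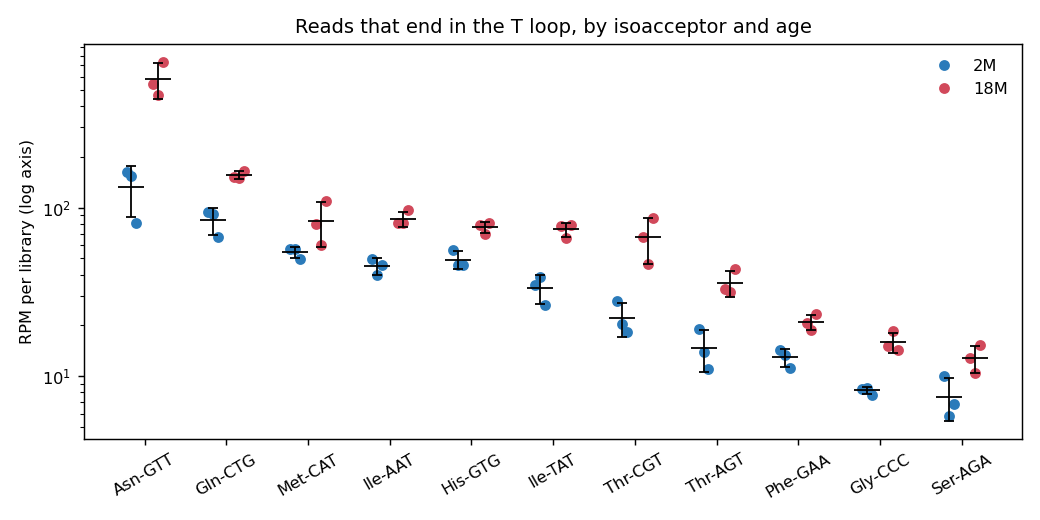
RPM per library (points, log axis) of reads that end in the T loop, for the 11 isoacceptors of at least 10 RPM in that class, with mean and SD by age (n = 3). In each of them the 18M points lie above the 2M points, by a ratio of means from 1.52 in Met-CAT to 4.37 in Asn-GTT.

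Read by read, 20 of the 85 tested tRNA reads were T-loop reads. Of these, 8 passed the filter only through their 18M libraries, and 12 had at least 10 RPM at both ages. Of the 12, 9 had an unadjusted p under 0.05 in limma and 10 did not overlap between ages, all higher at 18M, as against 7.15% and 10.3% of all reads with that level at both ages. Their log2 fold changes ran from 0.46 to 2.52. The 12 are forms of a few fragments, from Asn-GTT, Gln-CTG, Ile-AAT, Met-CAT and His-GTG, and share a start within each tRNA. They are therefore not separate cases, and the T-loop class was set after the values had been seen. By the same filter, 1 of 28 5′ reads and 1 of 20 CCA-ending reads were higher at 18M at an unadjusted p under 0.05, with log2 fold changes from -0.61 to 0.44 and from -0.31 to 0.82.

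A serine read resembled the T-loop reads at its start. Ser-GCT, a serine tRNA with a long variable arm of which only 1.72 RPM lay in T-loop reads, was at 180, 297 and 181 RPM at 2M and at 386, 219 and 462 RPM at 18M. These groups overlapped, and limma gave an adjusted p of 0.43. tRNA reads with the seed AAUCCA, which is carried by Ser-GCT reads starting at TAATCC, were at 72.6, 191 and 75.3 RPM at 2M and at 284, 129 and 325 RPM at 18M, with 2M replicate 2 above 18M replicate 2.

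The other tRNAs among the 10 most abundant isoacceptors overlapped between ages. His-GTG, the histidine tRNA, had the highest mean of all isoacceptors and was at 452, 411 and 446 RPM at 2M and at 310, 449 and 458 RPM at 18M. Leu-AAG, a leucine tRNA, was at 376, 424 and 346 RPM at 2M and at 542, 369 and 370 RPM at 18M. Glu-TTC, a glutamate tRNA, was at 323, 293 and 332 RPM at 2M and at 329, 245 and 310 RPM at 18M. The groups overlapped in all 3, and the log2 fold changes were -0.13, 0.14 and -0.11 (SE 0.15 to 0.19, limma adjusted p 0.76 to 0.78).

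The mean level was 420 RPM in mt-Tl1, 197 RPM in each of Met-CAT and Asp-GTC, 189 RPM in Glu-CTC and 187 RPM in Val-CAC. None of these passed the test in limma. The order within the upper group, His-GTG, mt-Tl1, Asn-GTT and Leu-AAG at 421 to 404 RPM, differs by less than the spread between libraries. The most abundant read of Glu-CTC was an internal read of 19 nt at 14.8 RPM, and that of Val-CAC a CCA-ending read of 18 nt at 18.2 RPM.

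Of the most abundant single reads, the Leu-AAG 5′ read was at 171, 183 and 164 RPM at 2M and at 221, 154 and 154 RPM at 18M. The His-GTG read ending in CCA was at 167, 158 and 167 RPM at 2M and at 87.9, 164 and 163 RPM at 18M. In both, 18M replicate 1 stood apart from the other 18M libraries, in opposite directions. The Glu-TTC 5′ read was at 66.4, 91.0 and 70.7 RPM at 2M and at 69.2, 46.1 and 56.6 RPM at 18M, and the Asp-GTC 5′ read at 74.0, 76.9 and 51.7 RPM and at 55.6, 38.5 and 53.3 RPM. Limma gave adjusted p-values of 0.42 for both. The loss with the largest change at an unadjusted p under 0.05 was small, a His-GTG read 1 base short of CCA, at 22, 22.7 and 23.9 RPM at 2M and at 18.4, 17.1 and 19.1 RPM at 18M (log2 fold change -0.31, SE 0.13, limma adjusted p = 0.38).

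Grouped by amino acid, leucine tRNAs held 11.7% of the tRNA RPM, serine 9.52%, glutamate 8.22%, histidine 7% and asparagine 6.84%. Among isoacceptors, 10 of the 59 tested were higher at 18M without overlap, against 7.67% of all features at that level, and none was lower without overlap, against 14%. Beside Asn-GTT, Ile-TAT, Gln-CTG, Thr-CGT and Thr-AGT, they were Gly-CCC, Ser-AGA, Cys-GCA, Phe-GAA and Ala-AGC. Gly-CCC, a glycine tRNA, was at 133, 132 and 133 RPM at 2M and at 181, 171 and 173 RPM at 18M (log2 fold change 0.40, SE 0.10, limma adjusted p = 0.14). Val-AAC and Ile-GAT, under the 10 RPM filter, were lower at 18M without overlap, Val-AAC at 8.01, 9.21 and 7.20 RPM against 6.07, 3.54 and 5.49 RPM.

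Sorted by the last base of the anticodon, the 13 tested cytosolic isoacceptors with T there had a median log2 fold change of 0.21 and a range of -0.25 to 1.87. The 11 with G had a median of -0.047, the 11 with C of 0.17 and the 9 with A of 0.064. At an unadjusted p under 0.05 in limma were 5 of the 13 with T, 1 each with G and with C and 2 with A, all higher at 18M, as were 5.33% of all features at that level. No test compared the groups.

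The tRNAs known to be cut in the anticodon loop under stress, among them Gly-GCC, Glu-CTC, Val-CAC, Lys-CTT, His-GTG and Asp-GTC, had both positive and negative values. Of 10 listed, 9 were tested and 0 passed the adjusted threshold in limma, 1 being higher (Gly-CCC) and 0 lower at an unadjusted p under 0.05. Their median log2 fold change was -0.086, beside 0.092 over all 59 isoacceptors tested and -0.049 over all features at that level. The substrates of the tRNA methyltransferase DNMT2 were Asp-GTC and Gly-GCC, at -0.12 and -0.069, and Val-AAC, which was under the filter and not tested. Arg-TCT has a brain-specific copy known from mouse neurodegeneration, which was not told apart here. All its names together were at 45.0, 43.9 and 39.1 RPM at 2M and at 99.4, 22.7 and 42.9 RPM at 18M. Both the highest and the lowest value were at 18M, and chr3.trna628-ArgTCT held 75.05 RPM of the highest. Leu-CAG, known as a source of RISC-bound 3′ fragments, had 0.22 (limma adjusted p = 0.51), and Met-CAT 0.20 (limma adjusted p = 0.55). No read named the selenocysteine tRNA.

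Mitochondrial tRNAs made up 23.4%, 15.3% and 17.5% of tRNA reads at 2M and 19.5%, 14.3% and 14.8% at 18M, with overlap between ages (exact permutation p = 0.5). All 14 reached 10 RPM, and in limma 0 passed at an adjusted or unadjusted p under 0.05. Their log2 fold changes ran from -0.23 to 0.38, with a median of 0.065. Positions are those of GRCm38 (GENCODE M21), which the deposited coordinates match within 1 base.

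The leucine tRNA mt-Tl1 (chrM:2676-2750, plus strand) was at 686, 271 and 348 RPM at 2M and at 563, 299 and 354 RPM at 18M. Replicate 1 of each age was highest, and 87.0% of its reads were placed at its 5′ end, by exact match or by their first bases. Next came the serine tRNA mt-Ts2 (chrM:11613-11671, plus strand), with 86.5% at its 5′ end, at 191, 162 and 151 RPM and at 228, 131 and 190 RPM. The valine tRNA mt-Tv (chrM:1025-1093, plus strand), at 131, 81.0 and 87.3 RPM and at 166, 106 and 94.7 RPM, was instead represented by CCA-ending reads, 81.7% of its total. These 3 tRNAs thus differ in which end was found, at either age.

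By length, the tRNA fragments were mostly in the range of miRNAs, with more short reads. Lengths from 21 to 24 nt held 54.4% to 63.0% of tRNA RPM and 87.2% to 88.8% of miRNA RPM over the 6 libraries. Cytosolic fragments had 22.95% ± 1.97 (SD, n = 6) at 22 nt and a shoulder of 14.2% ± 1.2 at 20 nt, while mitochondrial fragments peaked at 21 nt, with 22.9% ± 2.15, and at 23 nt, with 25.1% ± 4.33. The mean length of tRNA reads was 21.8, 21.7 and 21.6 nt at 2M and 21.7, 21.8 and 21.9 nt at 18M (exact permutation p = 0.5). Reads of 30 nt or more were 2.87% to 3.43% of tRNA reads. The study's gel cut was set at 19 to 35 nt, and the tRNA reads ran from 15 to 38 nt.

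**Figure D4:**
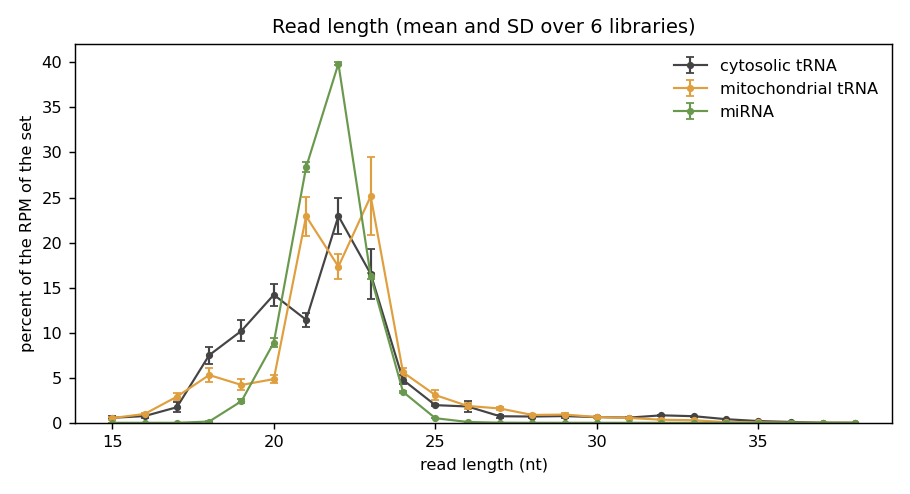
Share of the RPM of cytosolic tRNA, mitochondrial tRNA and miRNA reads at each read length in nt, as mean and SD over the 6 libraries. miRNA reads peak at 22 nt with 39.9%, and cytosolic tRNA reads peak there with 22.95% beside a shoulder at 18 to 20 nt.

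Within each library, the seeds of tRNA reads had a higher viability than those of miRNA reads, 61.3% to 63.5% against 57.5% to 58.2%. The mean difference was 4.46 ± 1.07 percentage points of viability (SD, n = 6, exact paired permutation p = 0.031, the smallest that 6 libraries allow, adjusted p = 0.094 over 3 measures), and it was positive in 6 of 6 libraries. The mean viability of tRNA reads was 62.0%, 61.8% and 61.3% at 2M and 62.6%, 63.0% and 63.5% at 18M, without overlap (exact permutation p = 0.1, adjusted p = 0.2). Reads with a seed viability under 40% were 13.8%, 14.2% and 14.9% of tRNA reads at 2M and 12.9%, 12.6% and 12.5% at 18M (exact permutation p = 0.1, adjusted p = 0.2). CCA-ending reads made up 23.1%, 20.9% and 25.9% at 2M and 18.8%, 20.03% and 19.0% at 18M, and G made up 27.0%, 25.4% and 26.0% of seed bases at 2M and 25.2%, 24.5% and 23.2% at 18M, with the same p-values. These 4 of the 8 measures did not overlap, and none passed the adjusted threshold. All 4 are shares of the tRNA reads, in which the T-loop class, with a mean viability of 66.3%, held a larger part at 18M, and its part in them was not tested.

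The tRNA reads held 1450 of 4096 possible 6mer seeds, and the 10 most abundant seeds carried 35.5% of their RPM. In 9 of those 10 the miRNA-labelled reads with the same seed summed to less than 10 RPM. Among tRNA seeds of low viability, GGCCGC, with a viability of 8.3%, was carried by a His-GTG T-loop read of 22 nt at 20.4, 20.9 and 18.4 RPM at 2M and 26.1, 31.4 and 29.7 RPM at 18M (log2 fold change 0.52, SE 0.14, limma adjusted p = 0.22). The seed CCCUGC, with a viability of 20.7%, averaged 55.1 RPM.

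The T loop also holds adenosine 58, which many tRNAs carry in a methylated form that reverse transcriptase misreads, and the CCA-ending reads cross it. In cytosolic reads of at least 20 nt that end in CCA, position 58 is base 19 counted from the 3′ end. Taking the conserved A as the reference, a base other than A was read in 40.4%, 40.9% and 41.7% of the RPM at 2M and in 42.9%, 40.4% and 40.5% at 18M. The substitution was A58T in 27.9%, A58G in 11.5% and A58C in 1.70%. The ages overlapped, at 41.0% ± 0.65 (SD, n = 3) and 41.3% ± 1.42 (SD, n = 3).

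Isoacceptors differed more than ages did. A base other than A was read in 35.1% to 37.3% of His-GTG reads, in 28.5% to 32.0% of Met-CAT reads and in 61.8% to 70.6% of Asn-GTT reads over the 6 libraries. In Gly-GCC it was 88.9% to 98.4%. Sequences of cytosolic tRNA genes were not used here, so a gene copy with another base at 58 cannot be told apart from a misread base.

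Since position 58 falls in the seed of the 22 nt reads that end in CCA, the base read there sets the seed assigned to the fragment. The reads of His-GTG that differ only by A58T and A58G are shown for this.
His-GTG, A at 58: tCGAATCcgagtcacggcacca
His-GTG, A58T: tCGTATCcgagtcacggcacca
His-GTG, A58G: tCGGATCcgagtcacggcacca

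The A form averaged 151 RPM with a seed viability of 74.4%, the A58T form 60.2 RPM with 71.5%, and the A58G form 20.5 RPM with 33.9%. The seed of the A58G form, CGGAUC, is that of miR-127-3p, whose seed was carried by 8611 RPM of miRNA-labelled reads. The A58T form was at 65.3, 60.1 and 69.7 RPM at 2M and at 36.8, 67.5 and 61.9 RPM at 18M, following the A form with a low value in 18M replicate 1.

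**Figure D5:**
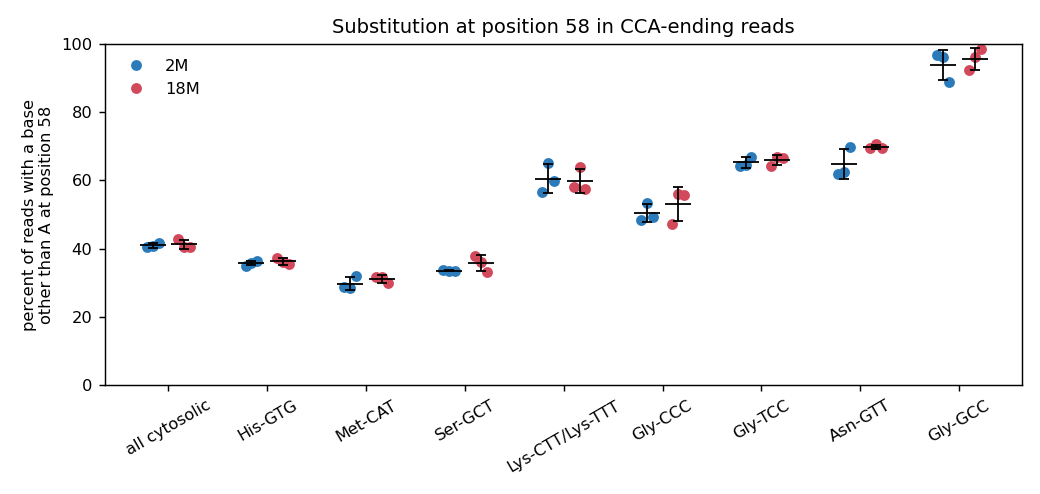
Percent of CCA-ending reads of at least 20 nt with a base other than A at position 58, per library (points) with mean and SD by age (n = 3), for all cytosolic tRNAs and for the 8 isoacceptors with most such reads. The ages lie close together within each isoacceptor, and isoacceptors range from Met-CAT, at 28.5% to 32.0%, to Gly-GCC, at 88.9% to 98.4%.

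A comparable site lay in mt-Tl1, for which the reference sequence is known. Position 9 of mitochondrial tRNAs is commonly methylated. Among reads starting at base 1 with at most 1 mismatch, G9T made up 19.2%, 19.0% and 20.4% at 2M and 20.7%, 19.6% and 19.3% at 18M. G9C made up 5.51%, G9A 3.73% and G6A 6.22% on average, positions being counted from 1 at the 5′ end of the gene. In mt-Ts2 the most frequent substitution was at 0.20% of reads.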

How the data were processed

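Small RNA bound to Ago1-4 was read by Illumina sequencing. Per the study's methods, the authors trimmed the reads (Trim Galore is named in the submitters' processing notes; versions are not given in the sources used here), collapsed identical reads, removed rare ones, matched them to mouse small RNA lists with SPOROS and scaled each library to the same total. The deposited values are in RPM. Whole reads came back from all values (100% within 0.1 of a step). The deposited table also gives a seed viability, averaged by the authors over 3 mouse cell lines. Its total column was not used, and 0 per-sample columns lay outside the 6 libraries. Reads shorter than the gel cut, down to 15 nt, are in the table.

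Computed here, groups were taken from the sample titles. Read sequences, tRNA names and isoacceptors were tested with limma 3.58.1 (trend) in R 4.3.3 on log2(RPM + 1) over every feature of the whole table whose mean reached 10 RPM. P-values were adjusted by Benjamini-Hochberg, and the call was made at 0.05. Fold changes on this scale understate those of low features. In simulated reads with a fixed spread and a large change of set size, limma recovered 48 of 48 changed read sequences tested. It called 2 of 3233 unchanged ones. Smaller changes and other spreads were not simulated, so recovery under them is not known. Per-library measures had exact two-sided permutation tests, and tRNA against miRNA reads an exact paired test over libraries. edgeR 4.0.16 and DESeq2 1.42.0 on recovered reads, other filters, pseudocounts and scaling, the replicate block and each library left out were alternatives. The Wilson intervals and the floors hold counting error alone, because PCR copies among the recovered reads could not be told apart.

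A cytosolic read was called 5′ where the conserved box A of the D arm began with its T at read position 8 or 9. It was called CCA-ending where it ended in CCA with up to 2 further bases. T-loop reads ended at GTTC or GATC, at a G or A after it, or at a further A with up to 3 bases more. Mitochondrial reads were placed by exact match to GENCODE M21. Without an exact match, those ending in CCA were called CCA-ending, and those sharing the first 5 bases of the gene 5′. In mt-Tl1, 233 of 420 RPM matched exactly. The share ending in CCA used a strict CCA. These classes, the position 58 count and the counts at 10 RPM at both ages were added after the values had been seen. Named were the 10 tRNAs with the highest mean and 3 mitochondrial tRNAs, called ones, the 10 most abundant reads, and at an unadjusted p under 0.05, up to 5 reads that gained most and 5 that lost most. Members, lists and named rules were chosen with earlier results of these data known.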

Additional observations from a re-analysis of the deposited data

Results flagged for a closer look

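The tRNA class of the deposited annotation named the 14 mitochondrial tRNAs encoded on the plus strand of the reference and none of the 8 on the minus strand. Reads that match those 8 exactly, the added CCA included, were found in other classes, mainly under mRNA, and are outside the comparisons above. Their mean was 14.6 RPM for mt-Tq, 9.28 RPM for mt-Ta, 7.34 RPM for mt-Tn, 5.43 RPM for mt-Tc, 23.6 RPM for mt-Ty, 2.58 RPM for mt-Ts1, 14.01 RPM for mt-Te and 12.2 RPM for mt-Tp, each above the limit that a count of 0 allows. Together, 355 read sequences summed to 98.3, 73.9 and 67.7 RPM at 2M and to 133, 64.8 and 96.7 RPM at 18M, with overlap between ages. A further 16 read sequences of the tRNA class carry a miRNA label and were left out by the rule, with a mean of 8.30 RPM.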

How the results depend on the processing

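The 4 read, 2 name and 2 isoacceptor calls became 9, 0 and 1 with a filter of 1 RPM, 0, 1 and 1 with 100 RPM, 25, 0 and 1 with no filter, and 15, 9 and 7 in DESeq2. Over all features tested, the calls were 12, 9 and 10 as reported, and 20, 2 and 4 with a filter of 1 RPM. They were 0, 4 and 4 with 100 RPM, 54, 1 and 2 with no filter, and 151, 52 and 53 in DESeq2. The tRNA reads tested numbered 838 at 1 RPM and 10176 with no filter. A pseudocount of 5 called 1 name, of 5 over all features, and median-of-ratios scaling 4 isoacceptors, of 13. Leaving out each library gave 0 to 0 calls at all 3 levels. The causes were not tested, other than fewer samples for a left-out library.

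With the replicate block, 0 reads, 0 names and 0 isoacceptors were called by limma, with 22, 12 and 8 at an unadjusted p under 0.05. The numbers do not pair the libraries: deviations of same-numbered libraries correlated at -0.12, -0.094 and -0.14, and 0 of 6 libraries correlated best with its own number.

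The difference in reads of 30 nt or more turned from -0.22 to 0.0034 percentage points among sequences of at least 1 RPM. tRNA minus miRNA length turned from 0.043 to -0.13 nt there, and the G share of seed bases from 0.51 to -0.98 percentage points without the most abundant tRNA name. The T-loop ratio, an addition after seeing the data, moved from 2.57 to 1.92 without Asn-GTT. The causes were not tested. The other per-library measures kept their direction under every alternative run.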
